A study of Mus musculus with 42 samples.

Results

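Mouse embryonic fibroblasts (MEFs) with 2 fluorescent reporter transgenes, Tet1-mCherry and Pou5f1-EGFP, were reprogrammed towards induced pluripotent stem cells (iPSCs), and cells were sorted by both reporters. The cells described here were mCherry+/GFP-, from the reprogramming system labelled naivex2 (nx2), sorted on day 12 and on day 14. They make up 6 of the 42 samples of the series, 3 at each day, chosen by their labels alone. The mCherry reporter is named for Tet1, which encodes a dioxygenase of methylated cytosine, and the GFP reporter for Pou5f1 (Oct4), a pluripotency transcription factor. The gate was set on fluorescence, so its cells showed the first reporter and not the second.

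All nx2 groups came from a cross of B6;129S4-Tg(Tet1-mCherry)B37Koh mice with mice of the strain B6;CBA-Tg(Pou5f1-EGFP)2Mnn/J and shared the genotype Tg(mCherry)/wt; Tg(GFP)/wt and male sex. The 3 samples of a group came from 3 independent lines, here called lines 1 to 3. Both days of the GFP- gate are labelled as Stage III intermediates, whereas GFP+ cells are labelled Stage IV on day 12 and Stage V on day 14. MEFs of day 0, GFP- cells of day 10 and clonal iPSC lines, which had been passaged on feeder cells and then depleted of them, served for levels. The factors delivered and the culture medium of the sorted cells are not given in the sources used here.

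Late in reprogramming, cells that have gained an epithelial character switch on the endogenous network of pluripotency genes, and a part of them does not complete this. A pair of general cell programmes recurs below. In the integrated stress response, kinases that sense a lack of amino acids, haem or folding capacity phosphorylate the translation initiation factor eIF2, and the transcription factor ATF4 then raises genes of amino acid synthesis, amino acid uptake and tRNA charging. In the response to low oxygen, hypoxia-inducible factors raise genes of glucose uptake, glycolysis and collagen hydroxylation.

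Counts per gene name summed to between 10028553 and 20332677 in the 6 libraries, and between 19214 and 21486 genes had a count. Between 2.545% and 3.458% of the counts lay on mitochondrially encoded genes. A set of 8 pluripotency markers summed to 2780 to 2930 CPM (counts-per-million values) on day 12 and 3320 to 3610 CPM on day 14, against 1.83 to 3.05 CPM in MEFs. The sums were 3340 to 3660 CPM in GFP+ cells of day 12, which overlapped GFP- cells of day 14, and 4450 to 4760 CPM in those of day 14. These markers do not check the gate, and the table holds no reporter transcript. Tet1 stood at 566, 639.5 and 515 CPM in lines 1, 2 and 3 on day 12 and at 476, 556 and 595 CPM on day 14, and the days overlapped (log2 fold change -0.08 ± 0.13, adjusted p = 0.67). Pou5f1 was at 634, 653 and 699.5 CPM and then 611, 656 and 611 CPM, again with overlap (-0.08 ± 0.12, adjusted p = 0.65). Its means in GFP+ cells were 772 and 871 CPM, so counts under this gene name were abundant in both gates. They do not separate an endogenous from a delivered copy of Pou5f1. A list of 8 Y-linked genes summed to 28.1 CPM in the iPSC library of line 3, against 282 and 286 CPM in those of lines 1 and 2. The cause was not tested. Here and below ± is the standard error (SE) of a log2 fold change, day 14 against day 12, and 3 counts correspond to 0.139 to 0.283 CPM.

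From day 12 to day 14 a large share of the transcriptome of GFP- cells moved. A gene was called when the Benjamini-Hochberg adjusted p of edgeR's quasi-likelihood test was below 0.05. Of 16132 genes tested, 5936 (36.8%) were called, 3320 higher on day 14 (20.6%) and 2616 lower (16.2%). Among the called genes 1500 rose and 515 fell by more than 1 on the log2 scale, and the median over the tested genes was 0.04. In GFP+ cells the same days gave 4919 calls (30.5%), of which 2344 were higher (14.5%) and 2575 lower (16%). Both gates were called in the same direction for 3457 genes, which is 58.2% of the calls in GFP- cells and 70.3% of those in GFP+ cells, and in opposite directions for 31. These shares are the background of each gene list below. In bulk RNA of sorted cells, fewer cells of a type and less RNA per cell cannot be told apart.

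**Figure D1:**
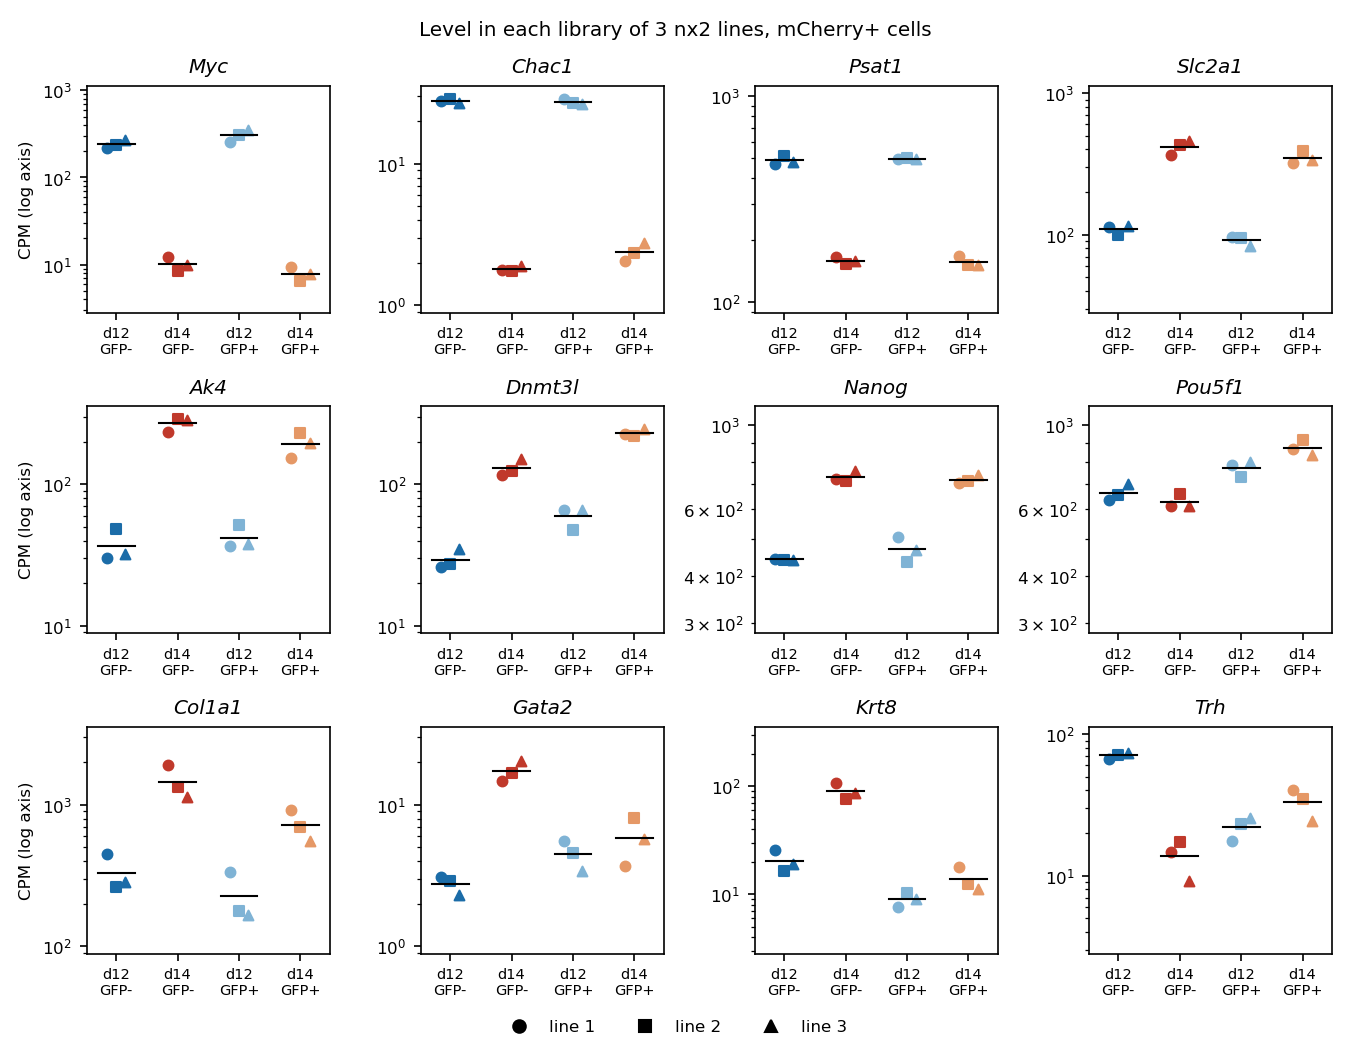
Level of 12 genes in each library, in CPM on a log axis, for GFP- and GFP+ cells of days 12 and 14. Symbols are the 3 lines and the bar is their mean. Myc, Chac1 and Psat1 fell and Slc2a1, Ak4, Dnmt3l and Nanog rose in both gates, whereas Gata2 and Krt8 rose and Trh fell in GFP- cells by steps that differed from those in GFP+ cells.

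The largest fall among genes of at least 10 CPM was that of Myc, which encodes a growth-promoting transcription factor and is itself used as a reprogramming factor. Myc lies on chromosome 15 (61985341 to 61990374, plus strand, mm10). Its level was 215, 238 and 272 CPM on day 12 and 12.1, 8.51 and 10.01 CPM on day 14. No day 14 library came near a day 12 library (-4.57 ± 0.24, adjusted p = 1.2e-09). Counts per gene name do not separate an endogenous from a delivered copy. The mean had been 448 CPM on day 10, and it was 147 CPM in MEFs and 27.5 CPM in iPSCs, so the day 14 cells stood below all 3 of these groups. In GFP+ cells Myc fell by 5.28, and the difference between the gates did not pass the test (0.71, adjusted p = 0.4).

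Genes around MYC moved in either direction. Of 28 tested genes of a list of MYC, its partners and its targets, 5 were called higher (17.9%) and 7 lower (25%). Over all tested genes the shares were 20.6% and 16.2%, and the median of the list was 0.03. The list pools MAX-binding repressors with targets, so it does not measure the targets alone. Gnl3, a nucleolar GTPase, went from 244, 258 and 251 to 172, 175 and 169 CPM (-0.54 ± 0.07). Mnt, a MAX-binding repressor, fell by 0.47 (SE 0.07) and Mycl, a paralogue of Myc, by 1.09 (SE 0.19). Mxd4, another MAX-binding repressor, rose from 12.6, 8.10 and 8.06 to 35.3, 25.8 and 23.2 CPM (1.57 ± 0.23), with line 1 highest on both days. The 5 higher became 2 without the day 12 library of line 2 or of line 3 or without the day 14 library of line 1, and 3 without the day 14 library of line 2 or with no filter on low counts. The 7 lower became 13 with the compared groups alone in the fit and 11 without 1 library of day 10. Klf4, also used as a reprogramming factor, was at 447, 503 and 468 CPM on day 12 and 449, 455 and 447 CPM on day 14 and was not called (-0.07 ± 0.11). Its counts too do not separate an endogenous from a delivered copy.

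The other large falls were of genes with unrelated roles. Rapgef4, which encodes a cAMP-activated exchange factor of RAP GTPases, went from 37.4, 44.4 and 34.7 to 2.66, 2.68 and 1.65 CPM (-4.04 ± 0.20). Hrk, a pro-apoptotic BH3-only gene, went from 12.7, 16.01 and 11.7 to 0.867, 0.833 and 0.916 CPM (-3.94 ± 0.42). Itga4, the integrin alpha 4 gene, fell by 3.89 (SE 0.54), and Pllp, which encodes the membrane protein plasmolipin, by 3.16 (SE 0.21). In each of them the days stood apart. Col9a3, a chain of collagen IX, fell by 2.88 (SE 0.26), Aldh3a1, an aldehyde dehydrogenase, by 2.80 (SE 0.26) and Dlk1, an imprinted Notch ligand homologue, by 2.78 (SE 0.34). All 7 were called lower in GFP+ cells as well. The 12 largest falls also held Chac1, Stc2 and Nupr1, which belong to the stress response described next, and Sema4a, which differed between the gates.

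Genes of the integrated stress response fell together. Of 36 tested members of a list of 37, 30 were called lower (83.3%, against 16.2% of all tested genes) and 1 higher, and the median log2 fold change was -1.15. The listed genes summed to 6720 to 6950 CPM in the 3 libraries of day 12 and to 3090 to 3200 CPM on day 14, without overlap. The sum was 4920 to 5820 CPM on day 10, 5770 to 6340 CPM in MEFs and 5440 to 8280 CPM in iPSCs, all above day 14. In GFP+ cells 31 members were called lower and 0 higher, with a median of -1.18, and the sums went from 7610 to 8010 CPM on day 12 to 3490 to 3710 CPM on day 14.

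At the head of the pathway, Atf4 went from 369, 361 and 367 to 193, 167 and 163 CPM (-1.07 ± 0.12, adjusted p = 7.7e-07). Ddit3 (CHOP), a transcription factor raised under lasting stress, went from 30.9, 20.1 and 21.5 to 9.19, 7.13 and 7.14 CPM (-1.62 ± 0.24). Trib3, a pseudokinase that restrains the pathway, went from 92.7, 82.7 and 72.4 to 22.7, 19.6 and 20.5 CPM (-1.98 ± 0.20). For these 3 genes each line was lower on day 14 than every line on day 12. Chac1, which encodes a glutathione-degrading enzyme, had the largest fold of the list (chromosome 2, 119351229 to 119354381, plus strand, mm10). Its libraries read 27.95, 28.7 and 26.9 CPM on day 12 and 1.79, 1.76 and 1.89 CPM on day 14 (-3.94 ± 0.17, adjusted p = 7.4e-12), and its mean on day 10 had been 10.7 CPM.

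Enzymes and carriers of amino acid supply followed. Psat1, the transaminase of serine synthesis, went from 471, 512 and 482 to 166, 153 and 158 CPM (-1.62 ± 0.11). Phgdh, which starts that synthesis, went from 129, 140.3 and 135 to 41.8, 40.4 and 42.9 CPM (-1.69 ± 0.20). Mthfd2, a mitochondrial enzyme of folate metabolism, went from 155, 163 and 149.6 to 42.7, 39.6 and 39.02 CPM (-1.95 ± 0.14). The spread between lines was small beside these steps. Slc3a2, the heavy chain of several amino acid exchangers, went from 363, 354 and 357 to 155, 144 and 139 CPM (-1.29 ± 0.10). Slc7a5, its partner for large neutral amino acids, fell by 1.16 (SE 0.14). Asns, asparagine synthetase, went from 522, 592 and 549.7 to 280.4, 289 and 306 CPM (-0.93 ± 0.11). The tRNA synthetase genes Gars, Aars, Nars and Sars fell by 1.05 (SE 0.08), 0.94 (SE 0.08), 1.15 (SE 0.10) and 1.02 (SE 0.13), and Wars by 0.51 (SE 0.07). Stc2, a secreted glycoprotein gene of the same response, went from 47.02, 43.2 and 47.3 to 5.66, 5.51 and 5.13 CPM (-3.07 ± 0.35).

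For a pair of carriers of cationic amino acids the test called a larger fall in GFP- than in GFP+ cells. Slc7a1 went from 115, 129 and 108 to 25.3, 21.3 and 22.5 CPM (-2.35 ± 0.14) and fell by 1.58 in GFP+ cells (difference -0.77, adjusted p = 0.042). That difference did not pass the test with scaling by library totals (adjusted p = 0.0749), with no filter on low counts (adjusted p = 0.0648) or in 11 of the 12 fits without 1 library (adjusted p up to 0.115), all but that without line 2 of the day 12 GFP+ cells. Slc7a3 went from 173, 169 and 179.7 to 83.2, 82.8 and 77.6 CPM (-1.10 ± 0.13, difference -0.79, adjusted p = 0.032). The difference of Slc7a3 was not followed through the other fits. Members that were not called were Vldlr, Atf3, Cebpb, Ddit4 and Aldh1l2, with Atf3, a stress-induced factor, at -0.42 ± 0.37. The member called higher was Cdsn, known as an adhesion gene of the epidermis, with 0.0661 to 0.189 CPM on day 12, at or near the level of 3 counts, and 0.278 to 1.22 CPM on day 14. Without the day 14 library of line 3 it was not called (adjusted p = 0.0712).

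**Figure D2:**
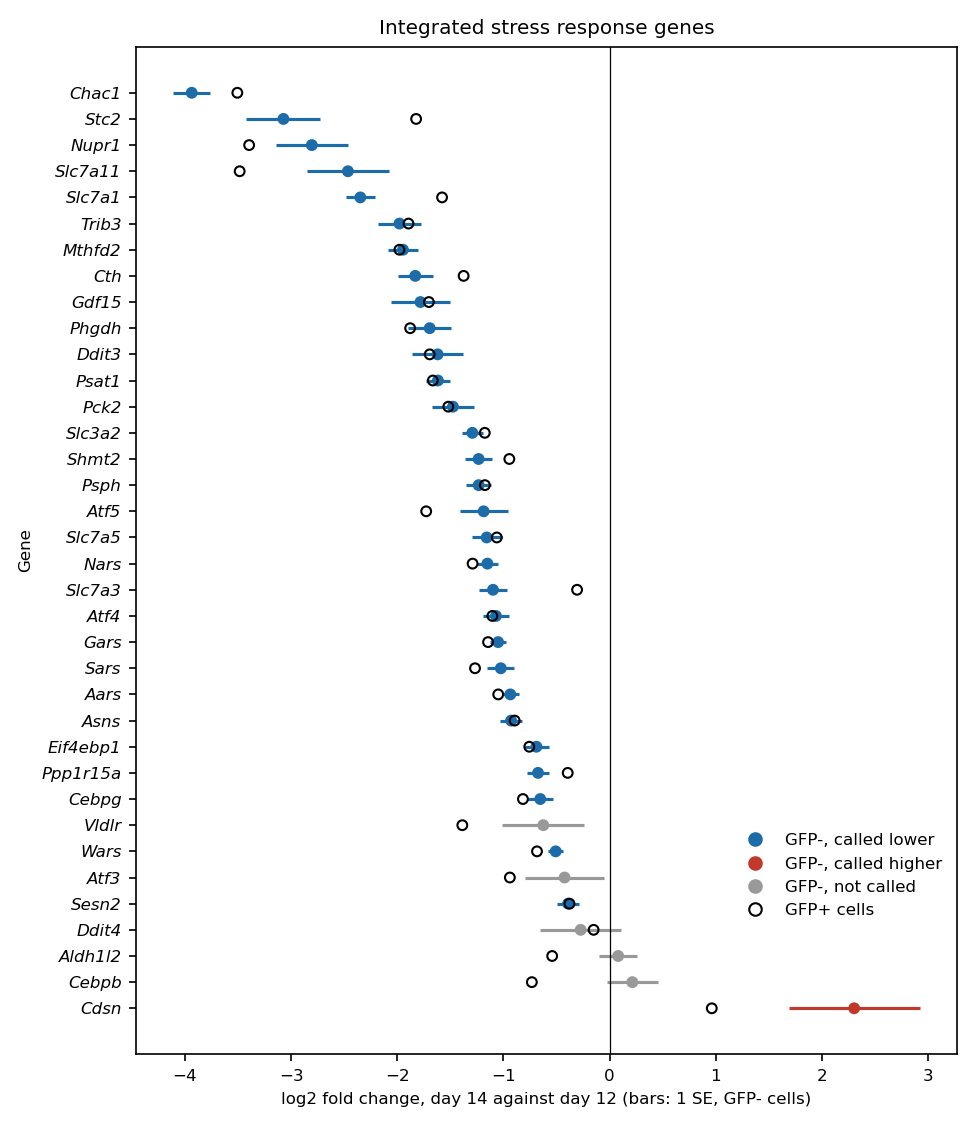
Log2 fold change of day 14 against day 12 for the 36 tested genes of the integrated stress response list. Filled points with bars of 1 SE are GFP- cells and open circles GFP+ cells. Chac1 is lowest at -3.94, 30 genes are called lower, and Cdsn is the member called higher.

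Promoters of the fallen stress genes are shown because ATF4, paired with a C/EBP factor, is known to bind elements of the form TGATGNAA. The window ran from 250 bases before to 50 bases after the first listed RefSeq start of a gene (GRCm38.p6), and both strands were searched. Of 24 genes called lower with a window, 8 held the element (33.3%), namely Chac1, Gars, Aars, Trib3, Asns, Nupr1, Pck2 and Slc7a11. Over the 11266 tested genes with a window the share was 2.19%, and over all 27025 windows 4.06%. In the whole list it was present in 9 of 29 (31%), and Atf3, which was not called, held it too. The list was built of known genes of this pathway, so its share does not bear on the fall. The stretches below run 5′ to 3′ in the direction of the gene, up to 60 bases to each side of the matches, with each match on either strand in capitals.
Chac1, chr2:119350992-119351116, plus strand: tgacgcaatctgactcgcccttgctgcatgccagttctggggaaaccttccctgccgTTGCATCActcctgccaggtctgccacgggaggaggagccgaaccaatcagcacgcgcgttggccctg
Nupr1, chr7:126625513-126625640, minus strand: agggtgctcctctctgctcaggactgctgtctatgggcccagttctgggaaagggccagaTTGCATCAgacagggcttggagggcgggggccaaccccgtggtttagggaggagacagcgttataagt
Slc7a11, chr3:50443614-50443739, minus strand: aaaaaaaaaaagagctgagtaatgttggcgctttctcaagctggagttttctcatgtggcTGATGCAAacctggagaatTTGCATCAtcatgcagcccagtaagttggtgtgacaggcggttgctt
Pck2, chr14:55540103-55540230, plus strand: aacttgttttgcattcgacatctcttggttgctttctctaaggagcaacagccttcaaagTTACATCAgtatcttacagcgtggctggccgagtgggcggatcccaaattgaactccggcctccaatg
Asns, chr6:7693210-7693292, minus strand: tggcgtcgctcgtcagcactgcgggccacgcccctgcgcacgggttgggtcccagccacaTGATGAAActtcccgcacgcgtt

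The genes of these stretches fell by very different amounts. Nupr1, a stress-induced nuclear protein, went from 62.04, 58.7 and 61.1 to 10.9, 6.66 and 8.55 CPM (-2.81 ± 0.34). Slc7a11, the cystine carrier, whose stretch holds the element on both strands, went from 15.5, 7.59 and 8.53 to 2.54, 1.53 and 1.59 CPM (-2.47 ± 0.39), with line 1 highest on both days. Pck2, mitochondrial phosphoenolpyruvate carboxykinase, went from 136, 148 and 139 to 48.2, 53.9 and 49.8 CPM (-1.48 ± 0.20). A match describes letters in this window and is not a measured binding site.

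Stress genes of the endoplasmic reticulum moved otherwise. In a list of 21 genes of the unfolded protein response, 8 were called higher (38.1%) and 2 lower (9.52%), against 20.6% and 16.2% of all tested genes. Hspa5 (BiP), the main chaperone of the reticulum, went from 332, 337 and 353 to 550.4, 527 and 536 CPM (0.66 ± 0.13), and Xbp1, a transcription factor of this response, from 20.02, 18.5 and 23.2 to 41.7, 40.1 and 38.1 CPM (0.96 ± 0.14). Herpud1, a component of the degradation machinery of the reticulum, fell from 37.02, 37.3 and 33.2 to 11.1, 10.1 and 8.61 CPM (-1.84 ± 0.14). For all 3 the days did not overlap. Chaperones of the cytosol rose, 8 of 18 called higher (44.4%, against 20.6% of all tested genes) and 0 lower. Among them, Hspa8 went from 834, 908 and 916 to 1700.3, 1688 and 1610.0 CPM (0.91 ± 0.10) and Hsph1 rose by 0.81 (SE 0.10).

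Ribosomal protein genes fell by a small and even amount. Of 24 tested of 25 listed, 18 were called lower (75%, against 16.2% of all tested genes) and 0 higher, with a median of -0.33. In 24 of 24 the days did not overlap, against 55.7% of all tested genes. Their sum went from 21200, 22100 and 23300 CPM to 17200, 18200 and 17000 CPM. Rpl4 went from 2780.5, 2915 and 3071 to 2272, 2316 and 2246 CPM (-0.36 ± 0.08), and Rpl3 fell by 0.55 (SE 0.14). Eef1a1 and Eef2, the elongation factors of translation, fell by 0.40 (SE 0.08) and 0.49 (SE 0.10). The 18 became 10 without the day 12 library of line 3, 10 without the day 14 library of line 1 and 11 without that of line 3. Ribosomal protein genes have near-identical processed copies, so their counts are uncertain.

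Lysosomal genes fell too. Of 23 tested genes of lysosome and autophagy 14 were called lower (60.9%) and 4 higher (17.4%), with a median of -0.39. Over all tested genes 16.2% were lower and 20.6% higher. Neu1, a lysosomal sialidase, went from 77.998, 78.3 and 84.5 to 33.2, 32.6 and 29.9 CPM (-1.33 ± 0.09). Ctsl, a cathepsin, went from 305, 293 and 298 to 156, 142 and 127 CPM (-1.08 ± 0.10), and Hexa, a subunit of hexosaminidase, from 279, 283 and 278 to 149, 153 and 136 CPM (-0.94 ± 0.10). Each of the 3 was also called lower in GFP+ cells. Ulk1, the kinase that starts autophagy, rose (0.66 ± 0.10). The 4 higher became 2 without the day 12 library of line 1 or of line 3 or the day 14 library of line 1 or of line 2. Ftl1, the light chain of the iron store ferritin, went from 2174, 2009 and 2182 to 1113, 1072 and 979 CPM (-1.01 ± 0.24).

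Genes of the response to low oxygen rose. Of 27 tested, 18 were called higher (66.7%, against 20.6% of all tested genes) and 1 lower, with a median of 0.61. Their sum was 2530 to 2570 CPM on day 12 and 3660 to 4220 CPM on day 14. Slc2a1 (GLUT1), a glucose carrier (chromosome 4, 119108711 to 119137983, plus strand, mm10), went from 114, 99.9 and 115 to 367, 428 and 462 CPM (1.94 ± 0.14, adjusted p = 8.4e-09). Ak4, a mitochondrial adenylate kinase, went from 30.03, 48.5 and 32.3 to 234, 290.0 and 286 CPM (2.86 ± 0.31). Ndrg1, a gene raised by low oxygen in many cell types, went from 24.9, 30.8 and 31.7 to 68.3, 92.4 and 91.4 CPM (1.52 ± 0.18). The days did not overlap for any of the 3, and in each line 1 was the lowest on day 14. P4ha2, a collagen prolyl hydroxylase, went from 3.87, 3.16 and 3.57 to 13.9, 16.5 and 15.2 CPM (2.11 ± 0.18), and Egln3, an oxygen sensor, from 10.01, 11.5 and 10.9 to 36.2, 48.5 and 48.1 CPM (2.03 ± 0.28). Car9, a carbonic anhydrase, was at 0.127 to 0.378 CPM on day 12, near the level of 3 counts, and at 1.59 to 2.55 CPM on day 14. Car12, another carbonic anhydrase, fell by 1.49 (SE 0.21). Hif1a, which encodes an oxygen-regulated subunit of the factors, was not called (-0.18 ± 0.15).

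Promoters of the risen genes are shown for the core of the known element of hypoxia-inducible factors, ACGTG, searched on both strands of the same window. It was present in 9 of the 13 genes called higher with a window (69.2%), against 25.1% of the tested genes with a window and 19.7% of all windows. In the whole list the core was present in 12 of 22 (54.5%), and Hif1a, Bnip3 and Ddit4 held it without being called. This list too was built of known pathway genes, so its share does not bear on the rise. The core also lies inside CACGTG, which was in 0 of the 13 called higher. Capitals mark the core on either strand.
Car9, chr4:43506948-43507025, plus strand: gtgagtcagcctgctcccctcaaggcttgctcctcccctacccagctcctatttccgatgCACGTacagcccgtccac
P4ha2, chr11:54100786-54100910, plus strand: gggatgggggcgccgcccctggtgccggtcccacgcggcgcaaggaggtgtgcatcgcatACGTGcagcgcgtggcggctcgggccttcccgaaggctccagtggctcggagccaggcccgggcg
Egln3, chr12:54204039-54204124, minus strand: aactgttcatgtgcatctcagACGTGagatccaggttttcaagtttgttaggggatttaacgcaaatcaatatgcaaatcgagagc
Slc2a1, chr4:119108649-119108744, plus strand: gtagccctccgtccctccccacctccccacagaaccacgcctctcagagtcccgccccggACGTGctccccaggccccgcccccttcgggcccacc

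In GFP+ cells 17 members of the low oxygen list were called higher and 2 lower, with a median of 0.85, and edgeR's test of the difference called 0 of the 27. Of 22 genes of glycolysis and glucose uptake 12 were called higher (54.5%) and 2 lower (9.09%) in GFP- cells, with a median of 0.36. Over all tested genes the shares in GFP- cells were 20.6% and 16.2%. Slc2a3 (GLUT3), another glucose carrier, went from 1309.9, 1322 and 1376 to 1813, 1855 and 2132 CPM (0.53 ± 0.11). Aldoc, an aldolase, rose by 0.88 (SE 0.23) and Hk1, a hexokinase, by 0.44 (SE 0.10). Against them, Eno2, an enolase, fell by 0.75 (SE 0.22), which was not called without the day 12 library of line 1 (adjusted p = 0.0737). The 12 became 7 without the day 12 library of line 1 and 7 without the day 14 library of line 2. A more negative step in GFP- than in GFP+ cells was called for Pfkp, a phosphofructokinase (-0.93), and Hk2, a hexokinase (-0.45). These differences were not followed through the other fits.

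Nuclear genes of the respiratory chain fell slightly, 12 of 27 called lower (44.4%, against 16.2% of all tested genes) and 0 higher. Their median was -0.22. Uqcrc2 of complex III went from 193, 191 and 199.8 to 149, 147 and 141 CPM (-0.42 ± 0.06) and Ndufs1 of complex I fell by 0.30 (SE 0.06). The 12 became 7 without the day 12 library of line 3, 6 without the day 14 library of line 1, 6 without that of line 3, and 7 with no filter on low counts. Of 9 tested genes on the mitochondrial genome edgeR called 0.

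Pluripotency genes rose in part while the counts of Pou5f1 kept their level within the spread. Of 20 shared pluripotency genes 12 were called higher (60%) and 4 lower (20%), with a median of 0.49. Over all tested genes the shares were 20.6% and 16.2%. Of 22 genes of the naive state, that of the early epiblast, 11 were higher (50%) and 2 lower (9.09%). Of 20 tested genes of the formative and primed epiblast, its later states, 12 were higher (60%) and 3 lower (15%). Nanog, a core factor (chromosome 6, 122707489 to 122714633, plus strand, mm10), went from 442, 441 and 441 to 722, 710.5 and 756 CPM (0.72 ± 0.10, adjusted p = 7.2e-06), and its mean was 454 CPM in iPSCs. Sall4, a zinc finger factor, went from 271, 262 and 269.8 to 396, 385 and 424 CPM (0.59 ± 0.07). Dppa2 and Dppa4, which bind together to prime early embryonic genes, rose by 1.86 (SE 0.23) and 1.16 (SE 0.08). Against them, Mybl2, a cell cycle factor, fell from 954, 1065 and 1021 to 625, 701 and 684 CPM (-0.60 ± 0.08).

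Among naive genes, Tbx3, a T-box repressor, went from 43.5, 53.5 and 41.4 to 110.0, 106 and 105 CPM (1.21 ± 0.11), with a mean of 298 CPM in iPSCs. Its step exceeded that in GFP+ cells by 0.80 (adjusted p = 0.011), a difference not called without the day 12 GFP- library of line 3 (adjusted p = 0.0557). Dppa3 (Stella) went from 43.9, 55.6 and 54.4 to 93.5, 97.5 and 104 CPM (0.94 ± 0.13), Nr5a2, an orphan nuclear receptor, rose by 1.11 (SE 0.12) and Zfp42 (Rex1) by 0.82 (SE 0.13). Esrrb, a further nuclear receptor of the network, was not called (-0.09 ± 0.08). Nr0b1 (Dax1), a repressor of the network, fell from 80.6, 83.8 and 66.6 to 42.5, 39.3 and 24.3 CPM (-1.12 ± 0.23). Of the later epiblast, the ligand Nodal rose by 1.10 (SE 0.16) and Etv4, a target of FGF signals, by 1.26 (SE 0.17), whereas Sox11 fell by 0.52 (SE 0.12).

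Of the enzymes that set DNA methylation, part of those that write it anew rose. Dnmt3b went from 141, 136 and 136 to 314, 277 and 312 CPM (1.13 ± 0.09, adjusted p = 2.0e-08), near its mean of 299 CPM in iPSCs. Dnmt3l, a catalytically inactive partner, went from 26.1, 27.2 and 34.8 to 117, 124 and 150.2 CPM (2.15 ± 0.23), against 319 CPM in iPSCs. Dnmt3a (-0.01 ± 0.11), Tet2 (0.15 ± 0.11) and Tet3 (-0.14 ± 0.13) were not called. Neil2, a glycosylase of base excision repair, fell from 38.9, 39.8 and 40.4 to 6.59, 8.65 and 9.83 CPM (-2.25 ± 0.23). In the list of 22 tested genes 4 were higher (18.2%) and 5 lower (22.7%), near the 20.6% and 16.2% of all tested genes. The 5 became 3 with scaling by library totals, without the day 12 library of line 2 or without the day 14 library of line 1 or of line 2. Among 30 Polycomb genes 10 were higher (33.3%) and 6 lower (20%), with Aebp2, an accessory subunit, at 0.93 ± 0.07.

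**Figure D3:**
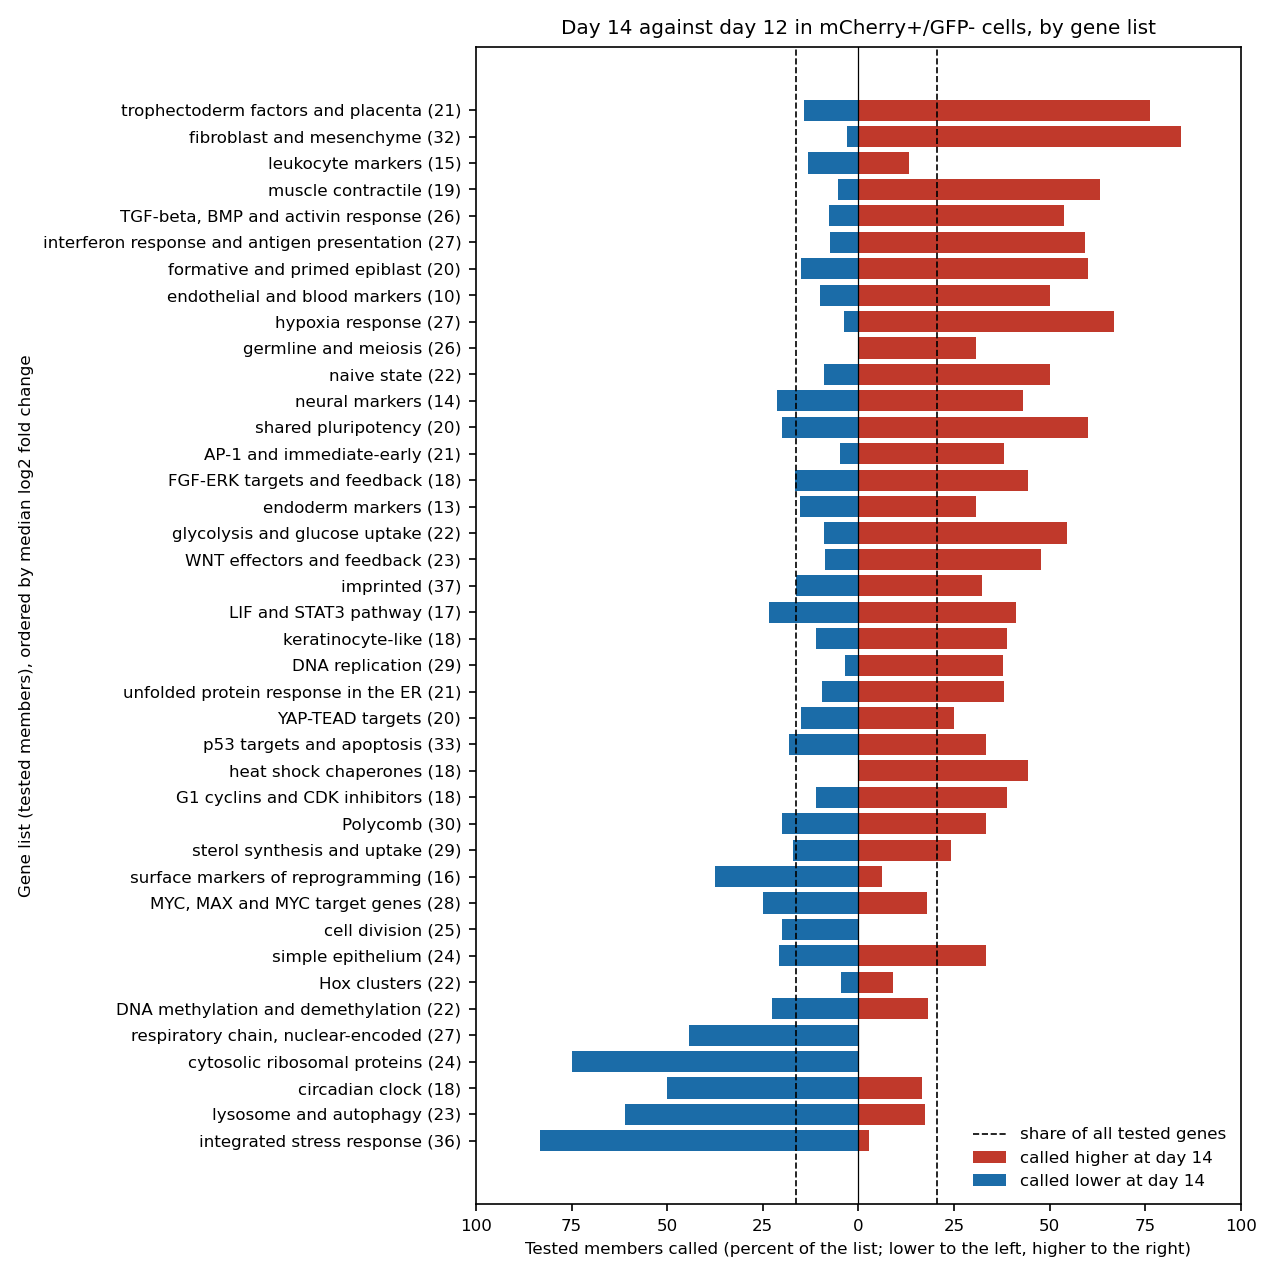
Share of the tested members of each gene list called higher or lower on day 14 in GFP- cells, in percent, for lists of at least 10 tested genes. Dashed lines mark 20.6% and 16.2%, the shares over all tested genes. The fibroblast list has 84.4% called higher and the integrated stress response list 83.3% called lower.

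Genes of fibroblasts and mesenchyme were higher on day 14. Of 32 tested, 27 were called higher (84.4%, against 20.6% of all tested genes) and 1 lower, with a median of 1.65. Col1a1, a chain of collagen I (chromosome 11, 94936224 to 94953042, plus strand, mm10), went from 449, 263 and 284 to 1907, 1342 and 1136 CPM (2.14 ± 0.38, adjusted p = 3.9e-04), against a mean of 8697 CPM in MEFs. Sparc, a collagen-binding matrix protein, went from 174, 124 and 129 to 511, 409 and 368 CPM (1.60 ± 0.21). Pdgfrb, a receptor of mesenchymal cells, went from 19.5, 12.8 and 13.3 to 65.2, 50.7 and 38.8 CPM (1.78 ± 0.30). Line 1 was the highest on both days in these 3 genes, and the days did not overlap. Snai1, a repressor of epithelial genes, went from 0.944, 1.46 and 1.12 to 6.35, 4.63 and 4.76 CPM (2.12 ± 0.40). Thy1, a surface marker of fibroblasts, went from 20.3, 13.7 and 12.95 to 50.1, 39.8 and 33.8 CPM (1.42 ± 0.32). Fn1, fibronectin, fell from 3108, 3115 and 3148 to 2282, 2319.7 and 2420.0 CPM (-0.42 ± 0.09).

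The 32 listed genes summed to 4580 to 5310 CPM on day 12, 7140 to 9780 CPM on day 14 and 50400 to 51600 CPM in MEFs. Line 1 was the highest for 29 of them on day 12 and for 30 on day 14. A set of 10 defining fibroblast markers summed to 773 to 1250 CPM on day 12, 2950 to 4890 CPM on day 14, 15000 to 16200 CPM in MEFs and 854 to 2600 CPM in iPSCs. Day 14 levels stood differently to MEFs from marker to marker. Twist2 was at 0.132 to 0.283 CPM on day 12 and 0.509 to 0.611 CPM on day 14, against a mean of 73.1 CPM in MEFs. Col3a1, a chain of collagen III, was at 238 to 373 CPM on day 12 and 915 to 1517 CPM on day 14, against 1519 CPM, and Lum, a matrix proteoglycan, was at 3.04 to 6.52 CPM on day 12 and 13.7 to 22.7 CPM on day 14, against 7.45 CPM. In GFP+ cells 15 of the 32 were called higher and 0 lower, with a median of 1.12, and edgeR's test of the difference called 0. Whether remaining fibroblasts in the sorted fractions took part in this was not tested. Cdh1, E-cadherin of epithelial cells, was not called (-0.19 ± 0.10). It was called lower with these 2 groups alone in the fit (adjusted p = 0.0177) and without 1 library of day 10 of high mitochondrial share (adjusted p = 0.0414), an alternative added after seeing the data.

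Contractile and TGF-beta genes rose beside them. Of 19 genes of muscle contraction 12 were called higher (63.2%) and 1 lower (5.26%), against 20.6% and 16.2% of all tested genes. Tpm2, a tropomyosin, went from 17.6, 14.997 and 17.9 to 50.8, 38.7 and 41.3 CPM (1.38 ± 0.25), and Des, desmin, rose by 0.96 (SE 0.14). The 12 became 6 without the day 12 library of line 2 and 7 without the day 14 library of line 1. Of 26 genes of the TGF-beta, BMP and activin response 14 were higher (53.8%) and 2 lower (7.69%), with a median of 1.15. Bmp4, a ligand, went from 5.29, 4.05 and 2.51 to 33.04, 31.4 and 27.2 CPM (2.98 ± 0.22). Id3, a target of BMP signals, went from 9.54, 8.86 and 9.05 to 41.997, 42.1 and 34.1 CPM (2.11 ± 0.23), and Smad7, an inhibitory SMAD, from 53.4, 47.96 and 41.5 to 125, 131 and 121 CPM (1.40 ± 0.14). For each of these 3 the days did not overlap. Ltbp1, a binding protein of latent TGF-beta, fell by 1.33 (SE 0.29).

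Of 23 tested genes of WNT effectors and feedback 11 were called higher (47.8%) and 2 lower (8.7%), with a median of 0.31. The shares over all tested genes were 20.6% and 16.2%. The listed genes summed to 740 to 752 CPM on day 12 and 721 to 767 CPM on day 14, with overlap. Axin2, a feedback gene that rises when beta-catenin is active, went from 0.283, 0.886 and 0.661 to 8.15, 7.59 and 6.90 CPM (3.54 ± 0.32), against a mean of 11.2 CPM in iPSCs. The ligand Wnt7b went from 13.03, 13.04 and 13.02 to 50.2, 50.4 and 59.7 CPM (2.03 ± 0.28). Sfrp1, a secreted antagonist, fell from 232, 230.2 and 228 to 139.8, 119 and 98.6 CPM (-0.95 ± 0.13).

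The largest rises among genes of at least 10 CPM had mixed roles. Neurog1, a neurogenic transcription factor (chromosome 13, 56250505 to 56252163, minus strand, mm10), went from 0.944, 1.27 and 1.26 to 11.7, 9.995 and 11.2 CPM (3.22 ± 0.31). Aire, best known as a regulator of gene expression in the thymus, went from 2.74, 3.23 and 5.35 to 18.9, 32.7 and 38.1 CPM (2.96 ± 0.32). Pygl, the liver form of glycogen phosphorylase, went from 1.51, 1.96 and 0.925 to 8.38, 11.5 and 10.8 CPM (2.79 ± 0.24). The days stood apart in each. B3gnt3, a glycosyltransferase, rose by 3.00 (SE 0.42), Dusp27, an atypical phosphatase, by 2.92 (SE 0.22), and Igfbp5, a binding protein of insulin-like growth factors, by 2.75 (SE 0.54). Tbx20, a T-box factor, rose by 2.71 (SE 0.29), Enox1 by 2.71 (SE 0.19) and Itga1, the integrin alpha 1 gene, by 2.70 (SE 0.23). The gene Pelo lies within Itga1 on the same strand, so their counts are not fully separate. Bmp4 and Ak4, described above, and Krt7, described below, complete the 12.

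Genes of the trophectoderm, the outer layer of the blastocyst, and of the placenta were higher on day 14 in GFP- cells. Of 21 tested of 25 listed, 16 were called higher (76.2%, against 20.6%) and 3 lower, with a median of 1.78. In GFP+ cells 10 were higher and 4 lower, with a median of 0.47. Of the 21, edgeR's test of the difference called 4 more positive in GFP- cells and 1 more negative. Gata2, a factor of trophoblast and blood (chromosome 6, 88193891 to 88207032, plus strand, mm10), went from 3.12, 2.91 and 2.31 to 14.7, 16.9 and 20.5 CPM (2.65 ± 0.23, adjusted p = 4.8e-08). Its GFP+ means were 4.52 and 5.84 CPM, and the difference of the steps was 2.27 (adjusted p = 7.1e-04). Nrk, an X-linked kinase of the placenta, went from 10.2, 10.8 and 11.04 to 57.3, 51.3 and 52.3 CPM (2.33 ± 0.18). Its difference of 1.26 (adjusted p = 0.029) was not called in any of the 12 fits without 1 library (adjusted p 0.0511 to 0.156). Rhox6 and Rhox9, X-linked homeobox genes related in sequence, rose by 0.89 (SE 0.17) and 1.33 (SE 0.19). In GFP+ cells Rhox6 fell by 0.97 and Rhox9 was not called (-0.52), and the differences were 1.87 and 1.85.

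Defining factors of this layer were at low levels. Cdx2, which had too few counts to be tested, was at most at 0.0661 CPM on day 12 and at 1.10, 0.509 and 1.10 CPM on day 14. Eomes went from 1.79, 1.46 and 1.26 to 6.93, 7.82 and 7.57 CPM (2.32 ± 0.27) and Gata3 from 4.91, 3.86 and 4.43 to 13.7, 10.5 and 14.8 CPM (1.57 ± 0.25). Krt7, a keratin, went from 2.55, 3.29 and 3.11 to 24.6, 17.6 and 20.1 CPM (2.78 ± 0.26). A set of 6 defining markers summed to 9.58 to 10.2 CPM on day 12, 41.9 to 56.0 CPM on day 14 and 53.8 to 56.9 CPM in MEFs. In MEFs Gata3 and Krt7 made up most of the sum, at means of 38.95 and 15.36 CPM, with Cdx2 and Elf5 at 0. On day 14 Elf5 was at 3.00, 1.99 and 2.63 CPM and Hand1 at 6.59, 3.42 and 4.70 CPM. In GFP+ cells the sum was 5.52 to 7.71 CPM on day 12 and 16.36 to 19.11 CPM on day 14, also without overlap. Tead4, a TEAD factor that acts early in this lineage, went the other way, from 175, 177 and 171 to 90.4, 89.3 and 83.8 CPM (-0.99 ± 0.07). It fell by 0.29 in GFP+ cells (difference -0.70, adjusted p = 6.4e-04).

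A pair of keratins of simple epithelium rose. Krt8 went from 25.5, 16.5 and 19.03 to 108, 76.3 and 87.02 CPM (2.16 ± 0.22) and its partner Krt18 from 35.9, 21.2 and 27.4 to 102, 73.5 and 84.4 CPM (1.63 ± 0.19), with line 1 highest on both days. Neither was called in GFP+ cells, and the differences were 1.56 (adjusted p = 0.019) and 1.17 (adjusted p = 0.047). The difference of Krt18 was lost with scaling by library totals (adjusted p = 0.0503), with relative log expression (RLE) size factors (0.0543), with no filter on low counts (0.114), without 1 library of day 10 (0.0647) and in 10 of the 12 fits without 1 library, all but those without the day 12 library of line 1 or the day 14 library of line 2 of the GFP- cells. That of Krt8 was lost with no filter on low counts (adjusted p = 0.0613) and in 6 of the 12 (adjusted p 0.0566 to 0.0779): without line 2 or 3 of day 12 or line 1 of day 14 in GFP- cells, and without line 2 of day 12 or line 2 or 3 of day 14 in GFP+ cells. Elf3, an epithelial factor, went from 38.3, 42.97 and 45.5 to 78.2, 91.4 and 92.9 CPM (1.05 ± 0.11). Of the 24 genes of simple epithelium 8 were called higher (33.3%) and 5 lower (20.8%), against 20.6% and 16.2% of all tested genes. The median was -0.04. Among the 5 lower were Epcam, an adhesion gene (-0.45 ± 0.08), and Spint1, a protease inhibitor (-0.60 ± 0.09). The 5 became 3 without the day 12 library of line 3 or the day 14 library of line 1, 10 with these 2 groups alone in the fit and 8 without 1 library of day 10.

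Several imprinted genes, expressed from 1 parental copy, were higher on day 14. Of 37 tested of 42 listed, 12 were called higher (32.4%) and 6 lower (16.2%), against 20.6% and 16.2% of all tested genes. The 12 became 9 without the day 12 library of line 2. The 6 became 10 with the compared groups alone in the fit. Cdkn1c, a cell cycle inhibitor, went from 11.8, 10.3 and 9.38 to 57.7, 49.7 and 45.4 CPM (2.29 ± 0.19, difference from GFP+ cells 1.46, adjusted p = 0.01). H19, a long non-coding RNA, went from 136, 124 and 136 to 884, 718 and 726 CPM (2.55 ± 0.36), and its neighbour Igf2, a growth factor gene, from 38.9, 30.9 and 32.5 to 238, 174 and 166 CPM (2.50 ± 0.39). Peg10, a gene derived from a retroelement, went from 122, 102 and 84.3 to 629, 489 and 492 CPM (2.39 ± 0.21). Line 1 was the highest on day 14 in all 4. Airn, the antisense RNA of the Igf2r locus, went from 7.37, 6.52 and 6.94 to 20.9, 24.5 and 20.4 CPM, while its GFP+ means were 5.07 and 4.99 CPM (difference 1.70, adjusted p = 5.7e-04). The predicted genes Gm16574 and Gm23833 lie within Airn on the same strand. Impact, a regulator of the stress kinase GCN2, fell from 152, 132 and 136 to 71.98, 68.8 and 64.6 CPM (-1.03 ± 0.08).

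The step from day 12 to day 14 differed between the gates for 249 genes (1.54%), 138 more positive in GFP- cells (0.855%) and 111 more negative (0.688%). Trh, the gene of the precursor of thyrotropin-releasing hormone (chromosome 6, 92242061 to 92244650, minus strand, mm10), had the most negative difference among genes of at least 10 CPM. It went from 66.7, 71.6 and 73.5 to 14.6, 17.4 and 9.10 CPM in GFP- cells (-2.35 ± 0.22), and from 17.5, 23.2 and 25.5 to 40.2, 34.8 and 24.2 CPM in GFP+ cells (difference -2.94, adjusted p = 1.0e-04). Sema5b, a semaphorin, went from 9.07, 8.29 and 10.4 to 2.08, 3.38 and 2.14 CPM in GFP- cells and from 12.5, 12.7 and 11.7 to 20.3, 19.5 and 15.8 CPM in GFP+ cells (difference -2.44). For both genes the GFP- libraries of day 14 lay below all others of the 4 groups, by little in the case of Trh. Sema4a, another semaphorin, went from 12.4, 14.6 and 15.5 to 1.68, 1.53 and 1.65 CPM (-3.13 ± 0.25, difference -2.26). Rnf165, a ubiquitin ligase, fell from 30.7, 31.6 and 30.9 to 5.78, 6.52 and 4.27 CPM (difference -1.92, adjusted p = 7.5e-05), and Gprc5a, an orphan receptor, from 30.3, 34.3 and 31.5 to 9.01, 10.8 and 7.45 CPM (difference -1.90).

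At the positive end stood Prkch, a protein kinase C gene. It went from 2.08, 2.47 and 2.84 to 15.6, 15.5 and 11.6 CPM in GFP- cells (2.52 ± 0.20) and from 2.81, 2.73 and 2.02 to 3.23, 2.83 and 2.67 CPM in GFP+ cells (difference 2.32, adjusted p = 2.3e-04). The GFP- libraries of day 14 stood above all others of the 4 groups. Laptm5, a lysosomal membrane gene known from blood cells, went from 104, 95.3 and 104 to 43.8, 44.3 and 43.4 CPM (-1.21 ± 0.09), against GFP+ means of 147 and 122 CPM. A set of 4 leukocyte markers summed to 37.3 to 45.9 CPM on day 12 and 14.2 to 17.3 CPM on day 14, with Tyrobp at 0 in the 6 libraries and Ptprc at 0 in 5 of them. Cd68, a lysosomal protein of macrophages and other cells, made up most of it and fell from 42.5, 37.3 and 45.8 to 12.5, 14.7 and 15.8 CPM (-1.54 ± 0.13), whereas Csf1r, a receptor of macrophages, rose and was at 0 to 0.132 CPM on day 12 and 1.20 to 1.56 CPM on day 14. Of 15 tested genes of the longer leukocyte list 2 were called higher (13.3%) and 2 lower (13.3%). Both shares were below the 20.6% and 16.2% of all tested genes. The median was 1.45, with 11 members not called. The number of genes that differed depended on the fit, being 928 with the 4 groups alone, 415 with DESeq2, 396 without 1 library of day 10 and 117 to 171 without 1 of the 12 libraries.

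**Figure D4:**
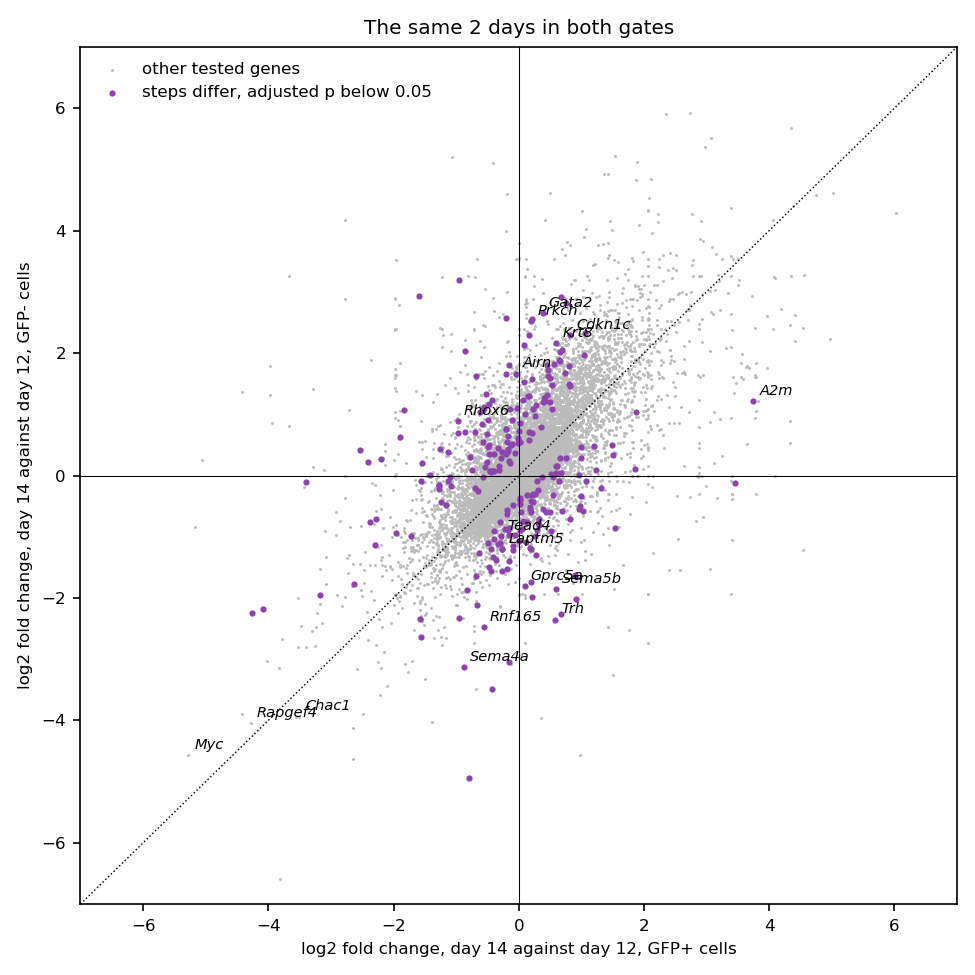
Log2 fold change of day 14 against day 12 in GFP- cells (vertical) against GFP+ cells (horizontal), 1 point a gene, with 3 genes outside the limits of 7. Purple points are the 249 genes whose steps differed, and the dotted line marks equal steps. Gata2, Prkch and Krt8 lie above that line and Trh, Sema5b and Sema4a below it.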

How the data were processed

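The deposited values are whole-number counts per gene name; per the submitters' processing notes and the file headers, the authors aligned reads with HISAT2 2.1.0 to mm10 and counted them over whole gene bodies, introns included, on the reverse strand with featureCounts 1.5.3 and GENCODE M10. Reads within more than 1 gene of a strand were not counted, and Sox2 has 0 counts. Sorted cells gave polyA RNA by a stranded protocol, per the labels' protocols.

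All 21 nx2 libraries of the table, with 9693737 to 20783265 counts, were fitted with edgeR 4.0.16 (R 4.3.3; filterByExpr, TMM scaling, robust quasi-likelihood test, Benjamini-Hochberg adjusted p below 0.05) without a block, giving a biological coefficient of variation of 0.1212. CPM values use TMM-scaled library sizes. Contrasts were day 14 against day 12 in GFP- cells, in GFP+ cells, and their difference. The lines pair the samples: deviations from group means of same-line libraries correlated at 0.225 to 0.323 between the days. Scripts were checked on simulated counts. Other scalings, filters, fits and left-out libraries were tried, with DESeq2 1.42.0 among them.

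Named genes were the 12 largest rises and falls of at least 10 CPM without overlap, the 6 largest in CPM, up to 5 members a list by p and 1 against its direction, the 6 largest differences between gates each way, and 16 fixed genes. Further list members (Atf4, Ddit3, Trib3, Phgdh, Asns, Slc7a5, Slc7a3, Slc7a11, Pck2, the tRNA synthetases, Atf3, Egln3, Car9, Hif1a, Pfkp, Hk2, Twist2, Lum, Gata3, Cdx2 and Igf2) were chosen after their values were seen. So were the markers Elf5 and Hand1. All lists were chosen with earlier results of these data known. Promoter windows came from RefSeq (GRCm38.p6), with 11266 of 16132 tested genes matched.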

Additional observations from a re-analysis of the deposited data

Results flagged for a closer look

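The values below are differences on the log2 scale between the day 12 to day 14 step in GFP- cells and that in GFP+ cells, which edgeR's interaction test called for 249 genes. They are given with no explanation.

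More positive in GFP- cells were Prkch (2.32), Gata2 (2.27), Rhox6 (1.87), Rhox9 (1.85), Airn (1.70), Cdkn1c (1.46) and Slc38a4 (0.72), each called in all 12 fits without 1 library. Msx2, a BMP-responsive homeobox gene (2.24), was lost without line 3 of the day 12 GFP- cells (adjusted p = 0.0508) or line 1 of the day 12 GFP+ cells (adjusted p = 0.078). Tbx3 (0.80) was lost without line 3 of the day 12 GFP- cells (adjusted p = 0.0557). Loxl4, a lysyl oxidase homologue (1.63), was lost without line 3 of day 12 or line 2 of day 14 in GFP- cells and without line 2 of day 12 or line 1 or 3 of day 14 in GFP+ cells (adjusted p 0.0564 to 0.0779), and with no filter on low counts (0.0637). Krt8 (1.56) was lost in 6 of the 12 fits and with no filter on low counts (adjusted p = 0.0613), Krt18 (1.17) in 10 and under 4 other settings (adjusted p 0.0503 to 0.114), and Nrk (1.26) in 12.

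Gjb2, a connexin gene (2.77), was lost in 7 of the 12 fits: without any line of day 12 or line 1 of day 14 in GFP- cells, and without line 1 of day 12 or line 1 or 2 of day 14 in GFP+ cells (adjusted p 0.0561 to 0.217). Trp63, a transcription factor of basal epithelium (4.52), stood at 0 to 0.190 CPM on day 12 and 0.794 to 1.33 CPM on day 14 in GFP- cells, so its fold rests on few counts. It was lost without line 3 of day 12 or line 1 of day 14 in GFP- cells and without line 1 or 2 of day 12 or line 1 or 3 of day 14 in GFP+ cells (adjusted p 0.0529 to 0.125). Prom1, the gene of a membrane glycoprotein (0.86), fell in both gates, by 1.77 (SE 0.13) in GFP- cells and by 2.63 in GFP+ cells. Its difference was lost in 9 of the 12 fits (adjusted p 0.0549 to 0.152), all but those without line 3 of day 12 in GFP- cells and without line 1 of day 12 or line 3 of day 14 in GFP+ cells. Phc2, a Polycomb gene (0.43), was lost in 10 of the 12 (adjusted p 0.0557 to 0.147), all but those without line 1 of day 12 or line 3 of day 14 in GFP+ cells, and with scaling by library totals (0.0537), RLE size factors (0.0541) or no filter on low counts (0.0672).

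More negative in GFP- cells were Trh (-2.94), Sema5b (-2.44), Sema4a (-2.26), Rnf165 (-1.92), Gprc5a (-1.90), Stmn2, a neuronal gene (-1.21), Laptm5 (-0.94), Tead4 (-0.70) and Spint1 (-0.64), each called in all 12 fits without 1 library. A2m, a protease inhibitor gene (-2.53, adjusted p = 0.041), was lost in 10 of them, all but those without line 2 of day 14 in GFP- cells or line 2 of day 12 in GFP+ cells (adjusted p 0.0598 to 0.215), and with the replicate block (adjusted p = 0.0506). A2m rose in GFP- cells, by less than in GFP+ cells, with a step of 0.62 to 1.43 over the other settings. The call of that step was lost in 4 of the 6 fits without 1 GFP- library (adjusted p 0.0858 to 0.435). It was also lost with DESeq2 (adjusted p = 0.0618), the replicate block (0.0609) and no filter on low counts (0.0585). The same held for RLE size factors (0.0523) and the fit without 1 library of day 10 (0.0533). The difference of Slc7a1 (-0.77) was lost in 11 of the 12 fits, and with scaling by library totals (adjusted p = 0.0749) or no filter on low counts (0.0648). Spred2, an inhibitor of ERK signals (-0.40), was lost in 10 (adjusted p 0.0554 to 0.121), all but those without line 2 of day 12 or line 3 of day 14 in GFP+ cells, and with no filter on low counts (0.154).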

How the results depend on the processing

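The number of genes called in GFP- cells was 5936 and stayed within 1.5 times of it under every alternative run, from 4718 without 1 library to 7380 with the compared groups alone in the fit. With the replicate block it was 6114, with 5850 genes shared, and 5133 in GFP+ cells and 316 for the difference between the gates. The pairing changed no call of a named gene other than A2m. The number whose steps differed between the gates depended most on the fit. From 249 it moved to 928 with the compared groups alone, 415 with DESeq2, 396 without the day 10 library of 8.993% mitochondrial counts, and to 117 to 171 without 1 library. The cause was not tested. In GFP- cells it was 162 and 117 without lines 1 and 3 of day 12, and 128, 150 and 157 without lines 1, 2 and 3 of day 14. In GFP+ cells it was 134 without line 2 of day 12, and 135 and 127 without lines 1 and 2 of day 14. Of 248 named steps 237 kept their call, or lack of one, under all alternatives in which they were tested, as did 16 of 29 named differences. Among called steps and differences 0 were reversed in sign. Steps that were not called could change sign, as those of Tet1, Tet3 and Dnmt3a did. Limits are 3 lines a group, gene-body counts that include introns, and genes near 3 counts a library.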

Other observations

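Genes of the interferon response and antigen presentation, which cells use against viruses, were mostly higher on day 14 in GFP- cells. Of 27 tested, 16 were called higher (59.3%) and 2 lower (7.41%), with a median of 1.01, against 20.6% and 16.2% of all tested genes. In GFP+ cells 8 members were called higher and 3 lower, with a median of 0.43, and edgeR's test of the difference called 0. Oas1a, a sensor of double-stranded RNA, went from 0.850, 1.83 and 1.39 to 6.41, 7.22 and 4.70 CPM (2.13 ± 0.35), and Psmb8, a subunit of the immunoproteasome, from 0.755, 0.949 and 0.727 to 3.23, 2.73 and 2.02 CPM (1.70 ± 0.32). Against them, B2m, the light chain of MHC class I, fell from 126, 105 and 122 to 64.4, 48.8 and 43.5 CPM (-1.17 ± 0.29). In a list of the circadian clock 9 of 18 were lower (50%) and 3 higher (16.7%). Bhlhe41, a clock repressor, fell from 23.5, 20.9 and 22.3 to 7.11, 6.43 and 5.92 CPM (-1.77 ± 0.20) and Cry1, another, by 0.75 (SE 0.09), whereas Nfil3 rose by 1.07 (SE 0.24).

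Of 29 tested genes of DNA replication 11 were called higher (37.9%) and 1 lower (3.45%), against 20.6% and 16.2% of all tested genes. Cdc6, a licensing factor, went from 42.3, 43.9 and 40.9 to 63.7, 64.8 and 67.4 CPM (0.62 ± 0.07). Of 25 genes of cell division 0 were higher and 5 lower (20%, near the 16.2% of all tested genes), with a median of -0.03, led by Nusap1, a spindle protein (-0.47 ± 0.11), and the 5 became 3 without the day 12 library of line 3, 1 without the day 14 library of line 1, 2 without that of line 2, and 3 with scaling by library totals or no filter on low counts. Ccnd3, a D-type cyclin, went from 227, 212 and 189 to 541, 498 and 470.3 CPM (1.27 ± 0.15). Among surface markers of reprogramming 6 of 16 were lower (37.5%) and 1 higher (6.25%), against 16.2% and 20.6% of all tested genes. Cd24a went from 47.4, 34.6 and 43.6 to 12.1, 12.6 and 11.1 CPM (-1.80 ± 0.24), and Itgb4, an integrin chain, was at -0.90 ± 0.12.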
